A study of Mus musculus with 12 samples.

Results

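A set of 9 genes of extracellular nucleotide sensing were followed across the J774A.1 RNA-seq libraries, namely the receptors P2rx4, P2rx7, P2ry2, P2ry6, P2ry13, P2ry14, Adora2a and Adora2b and the ectonucleotidase Entpd1. They were taken by symbol from the 2 count tables, which hold 18719 genes in all, and 8 of the 9 are in the table of unstimulated cells and all 9 in the table of LPS-treated cells. Adora2a is listed after LPS only, so it has no value without stimulation here. J774A.1 is a mouse macrophage cell line, and 3 lines per genotype were sequenced in each of 4 groups: WT unstimulated, ACAT1 KO unstimulated, WT with LPS and ACAT1 KO with LPS. LPS, the bacterial ligand of TLR4, was given at 100 ng/ml for 2 hours. All lines had been transfected with a Cas9 and GFP vector, which carried no guide RNA in WT cells and a guide against an exon of Acat1 in ACAT1 KO cells, and were then sorted on GFP and expanded as clonal populations. Genotype and any difference between the clones that spans all 3 lines cannot be told apart. The study addressed the part that fatty acid oxidation, through the mitochondrial enzyme ACAT1, plays in immune responses, and the transcriptome was among its readouts.

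Stressed and dying cells release ATP and UTP, which P2 receptors detect. P2X receptors are channels opened by ATP, whereas P2Y receptors couple to G proteins and respond to ATP, UTP, ADP, UDP or UDP-sugars. CD39, the product of Entpd1, removes phosphates from extracellular ATP and ADP, and the AMP left is converted to adenosine, which acts on the adenosine receptors. In macrophages P2X7 is known for triggering the NLRP3 inflammasome, and the receptors encoded by Adora2a and Adora2b raise cAMP and restrain inflammatory output.

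A choice of 3 promoter windows is shown because their genes moved most, or because they held the single motif match found. RefSeq windows of GRCm38.p6, from 250 bases before to 50 bases after an annotated start, were at hand for 7 of the 9 genes, 13 windows in all. The Adora2b window lies at chr11:62248734-62249033 on the plus strand and belongs to the gene with the largest LPS response among the 8 tested. The P2ry13 window lies at chr3:59210833-59211132 on the minus strand and belongs to the gene with the largest fall. Capitals mark CG dinucleotides in both.
Adora2b: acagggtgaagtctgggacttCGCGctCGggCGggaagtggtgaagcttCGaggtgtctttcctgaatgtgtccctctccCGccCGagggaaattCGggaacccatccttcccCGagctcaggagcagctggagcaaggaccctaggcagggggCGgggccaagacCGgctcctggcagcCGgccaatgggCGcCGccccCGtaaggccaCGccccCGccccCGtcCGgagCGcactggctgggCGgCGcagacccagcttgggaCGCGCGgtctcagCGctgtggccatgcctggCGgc
P2ry13: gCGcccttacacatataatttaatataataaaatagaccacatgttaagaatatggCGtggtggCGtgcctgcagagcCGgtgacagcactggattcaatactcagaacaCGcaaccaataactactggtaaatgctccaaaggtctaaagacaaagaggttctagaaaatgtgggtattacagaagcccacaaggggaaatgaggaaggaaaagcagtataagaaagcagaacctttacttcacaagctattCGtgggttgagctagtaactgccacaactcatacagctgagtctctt
The Adora2b window held 27 CG dinucleotides and was 70.0% GC, and 15.5% of the 32851 RefSeq mouse windows held as many or more. In the P2ry13 window there were 6 CG dinucleotides at 42.3% GC, and 47.9% of all windows held as few or fewer. The median window held 7 CG dinucleotides and was 52.7% GC.

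In all, 4 motifs were searched on both strands. No window of the 7 genes held the NF-kB consensus, the core of the interferon-stimulated response element or the palindromic cAMP response element, which occurred in 4.51%, 3.44% and 1.79% of all windows. The HIF core (ACGTG) was found in both overlapping P2ry2 windows, and 19.6% of all windows held it. The second of these lies at chr7:101011949-101012248 on the minus strand and is printed with capitals where the core reads on both strands of the same 6 bases.
P2ry2: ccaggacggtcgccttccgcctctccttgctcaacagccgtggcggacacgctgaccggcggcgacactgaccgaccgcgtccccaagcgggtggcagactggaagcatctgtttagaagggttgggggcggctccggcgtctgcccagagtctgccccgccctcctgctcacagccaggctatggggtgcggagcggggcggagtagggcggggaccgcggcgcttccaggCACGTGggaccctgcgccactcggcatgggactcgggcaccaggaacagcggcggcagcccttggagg
A match of letters is a description and says nothing of binding.

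Libraries held 56948593 to 167280149 counts. Acat1 was 80.8 to 108 CPM (a count relative to the size of its library, normalized by TMM on a scale shared by the 12 libraries) in WT and 25.5 to 28.9 CPM in ACAT1 KO cells without stimulation, and 65.0 to 95.4 against 18.5 to 19.9 CPM after LPS. The log2 fold changes were -1.87 and -2.08 (edgeR adjusted p = 0.0088 and 0.0008). All 12 macrophage markers examined were counted in every group. Of the markers of other cells, 3 of 8 T cell, 2 of 6 B cell, 4 of 7 neutrophil, 3 of 6 dendritic cell and 2 of 8 fibroblast and epithelial genes were in a table, each list summing to at most 14.6 CPM in a library. Those present were Cd247, Cd4, Lck, Cd79a, Cd22, S100a8, Mpo, Camp, Cxcr2, Zbtb46, Xcr1, Ccr7, Col1a1 and Pdgfra. Among the genes of these lists in neither table were Cd3d, Cd3e, Cd8a, Ms4a1, Ly6g, Flt3, Epcam and Col1a2. The summed macrophage markers were higher in each unstimulated ACAT1 KO library (12477 to 13996 CPM) than in each unstimulated WT library (10944 to 12307 CPM), although edgeR called none of the 12 higher and 2 lower. After LPS the fibroblast and epithelial sum was 5.58 to 6.56 CPM in WT and 11.4 to 13.1 CPM in ACAT1 KO cells, and the 1 gene of that list tested, Pdgfra, singled out after its values were seen, was called higher in ACAT1 KO cells, by 0.99 on the log2 scale. The T cell sum after LPS was 12.4 to 12.8 CPM in WT and 13.4 to 14.6 CPM in ACAT1 KO cells, with 1 of 3 genes called higher. The edgeR interaction test called Pdgfra and 1 of the 12 macrophage markers, both higher. The part of these markers in the genotype differences below was not tested. WT replicates 1 and 2 and ACAT1 KO replicate 2, all unstimulated, had a high other-strand share: 0.0201%, 0.0280% and 0.0308% of their counts fell on 68 noncoding genes that lie opposite exons, while this share was 0.0083% or less in every other library. In bulk RNA, fewer cells expressing a gene and less RNA per cell cannot be told apart.

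The levels were first set side by side per length, as CPM per kilobase of annotated exon. P2ry6, the UDP receptor, stood highest in every group, at 45.3 ± 2.56 CPM per kilobase (SD, n = 3) in unstimulated WT cells. P2rx7 followed at 9.35 ± 0.884, P2rx4 at 7.12 ± 0.224 and Entpd1 at 3.90 ± 0.875 CPM per kilobase. The libraries of each of these genes did not overlap those of the next in order. P2ry2 at 2.63 ± 0.403 and P2ry13 at 2.31 ± 0.391 CPM per kilobase overlapped each other. Adora2b, at 0.589 ± 0.0650, and P2ry14, at 0.0146 ± 0.0006 CPM per kilobase, were lowest and separate. The order was the same in unstimulated ACAT1 KO cells. After LPS Adora2b reached 3.76 ± 2.13 CPM per kilobase in WT and 2.30 ± 0.487 in ACAT1 KO cells, overlapping the libraries of P2ry2 in both genotypes. Adora2a stood next to last in both, at 0.129 ± 0.0248 and 0.215 ± 0.0178 CPM per kilobase.

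**Figure D1:**
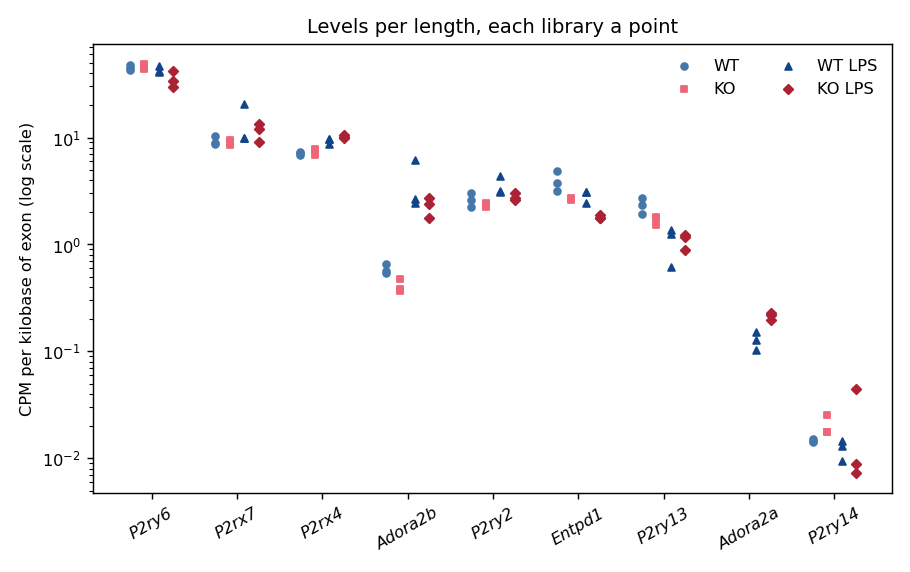
CPM per kilobase of exon on a log axis for each gene, ordered by the mean in WT cells after LPS, with 1 point per library and a colour and shape for each of the 4 groups. P2ry6 stands at the top in every group. The Adora2b points after LPS sit among those of P2ry2 and Entpd1, except WT replicate 1, which lies above them at 6.21.

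The response to LPS was the largest change of the set. Of the 8 genes in both tables, 3 rose and 2 fell in WT cells, and 2 rose and 3 fell in ACAT1 KO cells, at an adjusted p under 0.05 (edgeR, quasi-likelihood F test, Benjamini-Hochberg over 16535 genes). Over all genes tested 57.4% passed in WT cells, 29.3% upward and 28.0% downward, and 60.7% passed in ACAT1 KO cells, 29.5% upward and 31.2% downward, shares close to the 5 of 8 here. In WT cells 3 genes had every LPS library above, and 2 below, every unstimulated library, as had 31.4% and 29.6% of all genes. In ACAT1 KO cells these were 3 and 3, where 33.2% and 34.6% of all genes were so placed. The median log2 fold change of the 8 genes was 0.16 in WT and 0.13 in ACAT1 KO cells, against -0.018 and -0.026 over all genes. None of the 8 passed the interaction test of edgeR for a different response between genotypes, either after adjustment or at an unadjusted p under 0.05. Over all genes 0.187% and 8.92% passed. DESeq2 and limma-voom called none of them either.

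**Figure D2:**
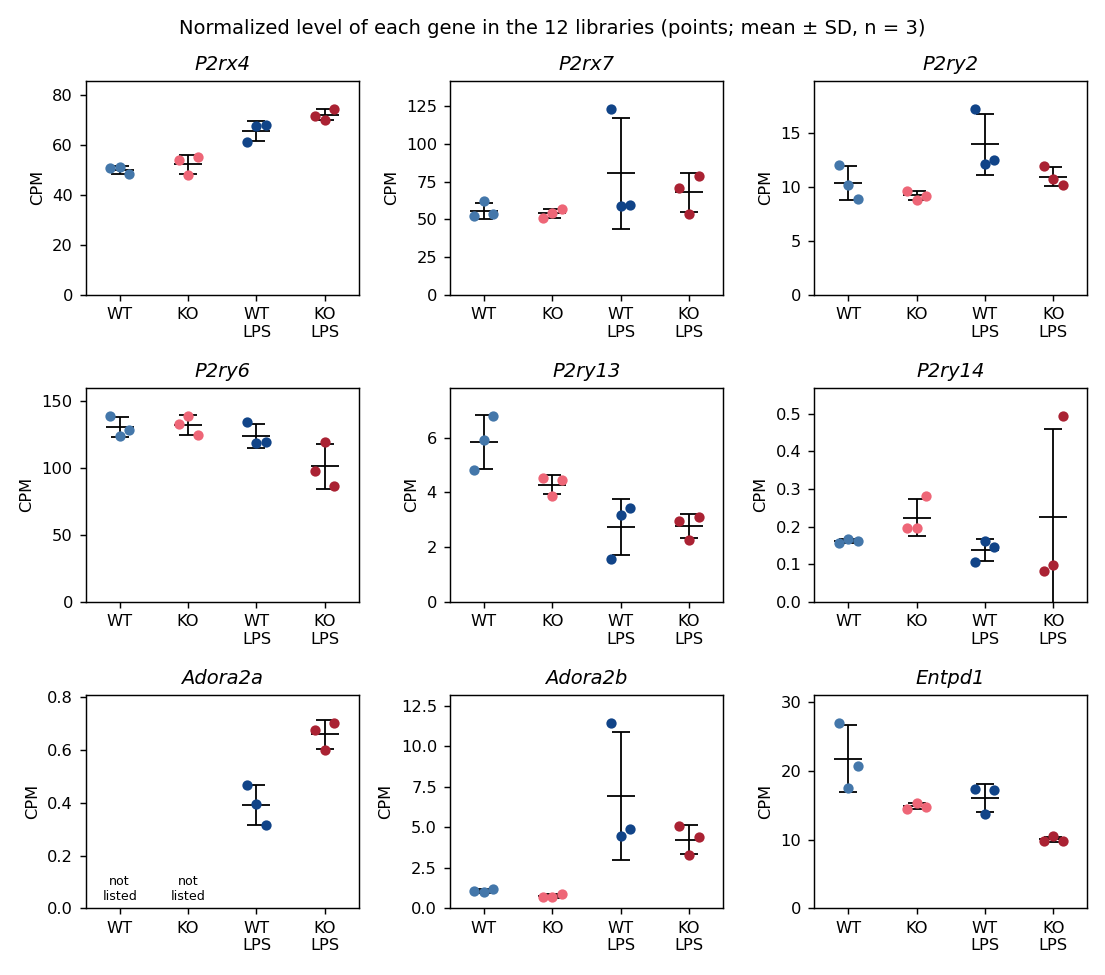
Normalized level in CPM of each gene in each library, in 4 groups of 3 lines, with the mean and SD in black and each axis starting at 0. Adora2b after LPS lies above every unstimulated library in both genotypes, and Entpd1 in ACAT1 KO cells lies below WT cells in both states.

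P2rx4, an ATP-gated channel found on lysosomes as well as at the cell surface, lies at chr5:122707544-122729738. It was 50.7, 51.1 and 48.2 CPM in unstimulated WT cells and 60.9, 67.6 and 67.9 CPM after LPS. In ACAT1 KO cells it was 53.7, 47.7 and 55.1 CPM, then 71.6, 69.9 and 74.3 CPM. Every LPS library lay above every unstimulated library of its genotype. P2rx4 rose by a log2 fold change of 0.39 (standard error 0.0667, edgeR adjusted p = 0.0003) in WT and 0.46 (standard error 0.0666, adjusted p = 7.43e-05) in ACAT1 KO cells. After LPS the 3 ACAT1 KO libraries were above the 3 WT libraries, a log2 difference of 0.16 that did not pass adjustment (standard error 0.0633, edgeR adjusted p = 0.134).

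Its neighbour P2rx7, at chr5:122643911-122691432, encodes the ATP-gated channel that triggers the inflammasome, and ends 16111 bases before P2rx4. P2rx7 was 52.1, 61.9 and 53.6 CPM in unstimulated WT cells and 51.1, 54.1 and 56.7 CPM in unstimulated ACAT1 KO cells. After LPS it was 123, 58.7 and 59.6 CPM in WT and 71.1, 53.6 and 79.0 CPM in ACAT1 KO cells. WT replicate 1 stood alone at 123 CPM, and the groups otherwise overlapped. The LPS response of 0.53 on the log2 scale in WT cells did not pass (standard error 0.245, edgeR adjusted p = 0.0863), and without that library it was 0.08. It was 0.33 in ACAT1 KO cells (standard error 0.245, adjusted p = 0.260). The difference between genotypes after LPS was -0.22 (standard error 0.285, adjusted p = 0.638), and it was 0.22 without that library.

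Among the P2Y receptors, P2ry2 and P2ry6 are also neighbours, 21918 bases apart on the minus strand. P2ry2, a receptor for ATP and UTP at chr7:100996568-101012866, was 12.01, 10.1 and 8.87 CPM in unstimulated WT cells and 17.2, 12.1 and 12.5 CPM after LPS. P2ry2 rose by 0.43 on the log2 scale in WT cells (standard error 0.143, edgeR adjusted p = 0.0220). The call was lost without WT LPS replicate 1, at 0.25 (adjusted p = 0.108), and without unstimulated WT replicate 2 or 3 (adjusted p = 0.0553 and 0.0863). It was also lost with upper-quartile scaling, at 0.22 (adjusted p = 0.202), and in a fit of the 6 WT libraries alone (edgeR adjusted p = 0.0702), and it was kept in 17 of 22 alternatives. In ACAT1 KO cells it was 9.64, 8.79 and 9.18 CPM, then 11.9, 10.8 and 10.2 CPM, higher in each LPS library without passing (log2 fold change 0.25, standard error 0.143, edgeR adjusted p = 0.149). It passed in 2 of 22 alternatives, the fit of the 6 ACAT1 KO libraries alone (edgeR adjusted p = 0.0342) and the fit with a line block across states (adjusted p = 0.0168). After LPS all 3 ACAT1 KO libraries lay below the WT libraries, by -0.33 on the log2 scale (standard error 0.139, adjusted p = 0.153).

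P2ry6, the Gq-coupled UDP receptor at chr7:100937630-100974649, was 139, 124 and 129 CPM in unstimulated WT cells and 134, 119 and 120 CPM after LPS. The WT groups overlapped (log2 fold change -0.07, standard error 0.104, edgeR adjusted p = 0.575). In ACAT1 KO cells it was 133, 139 and 125 CPM and fell to 98.1, 120 and 86.4 CPM, with no overlap. The fall was -0.38 on the log2 scale (standard error 0.104, edgeR adjusted p = 0.0070). P2ry6 passed in 1 genotype only, but the interaction test did not show a difference between the genotypes. There P2ry6 stood at -0.31 (standard error 0.147, unadjusted p = 0.0573, edgeR adjusted p = 0.585).

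P2ry13 and P2ry14 lie on chromosome 3 inside Med12l, on its opposite strand, without sharing exon bases. P2ry13, an ADP receptor coupled to Gi at chr3:59207892-59210882, was 4.84, 5.91 and 6.81 CPM in unstimulated WT cells and 1.56, 3.18 and 3.44 CPM after LPS. It fell by 1.10 on the log2 scale in WT cells (standard error 0.255, edgeR adjusted p = 0.0029). In ACAT1 KO cells it was 4.54, 3.87 and 4.44 CPM, then 2.96, 2.26 and 3.09 CPM, also without overlap. That fall, of 0.63 on the log2 scale, was at the threshold (standard error 0.253, edgeR adjusted p = 0.0484) and passed in 2 of the 12 fits that left out a library, where the adjusted p ran from 0.0057 to 0.161. Of its neighbours, P2ry12, another Gi-coupled ADP receptor 5389 bases away, fell by 1.17 in WT and 0.98 in ACAT1 KO cells on the log2 scale (edgeR adjusted p = 4.85e-05 and 0.0002). Med12l, a Mediator subunit gene, fell by 1.49 in WT and fell by 1.34 in ACAT1 KO cells (edgeR adjusted p = 0.0002 and 0.0003). The study made its libraries with a directional kit, but the strand setting of the counting is not given in the sources used here. Reads of Med12l introns and of P2ry13 or P2ry14 may therefore not be separable.

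P2ry14, the receptor for UDP-glucose at chr3:59113855-59153618, was close to the counting limit with 7 to 52 counts per library. It was 0.156 to 0.168 CPM in unstimulated WT cells and 0.195 to 0.281 CPM in unstimulated ACAT1 KO cells. After LPS it was 0.106 to 0.162 CPM in WT cells and 0.0815, 0.0984 and 0.495 CPM in ACAT1 KO cells, where replicate 3 stood apart. None of its comparisons passed in edgeR. Without ACAT1 KO LPS replicate 3 the LPS response in ACAT1 KO cells was -1.30 on the log2 scale (edgeR adjusted p = 0.0038), against 0.02 with it (adjusted p = 0.980).

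Adora2b, the low-affinity adenosine receptor at chr11:62248984-62266453, gave the strongest response of the set. It was 1.05, 0.992 and 1.22 CPM in unstimulated WT cells and 11.5, 4.46 and 4.88 CPM after LPS. In ACAT1 KO cells it was 0.702, 0.674 and 0.884 CPM, then 5.06, 3.28 and 4.39 CPM. All LPS libraries lay well above the unstimulated ones, and WT replicate 1 was again the highest. Adora2b rose 6.34-fold in WT cells (log2 fold change 2.67, standard error 0.337, edgeR adjusted p = 2.81e-05) and 5.62-fold in ACAT1 KO cells (2.49, standard error 0.335, adjusted p = 4.38e-05). Both calls held in all 22 alternatives, with log2 fold changes of 2.10 to 2.90 in WT and 2.34 to 2.65 in ACAT1 KO cells. The 2 responses differed by -0.18 on the log2 scale (standard error 0.455, edgeR adjusted p = 0.977).

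Entpd1, at chr19:40612366-40741602, moved the other way. It was 27.1, 17.5 and 20.8 CPM in unstimulated WT cells and 17.4, 13.7 and 17.2 CPM after LPS, and 14.5, 15.3 and 14.8 CPM in unstimulated ACAT1 KO cells against 9.81, 10.5 and 9.82 CPM after LPS. LPS libraries lay below unstimulated libraries in both genotypes. Entpd1 fell by 0.44 on the log2 scale in WT (standard error 0.138, edgeR adjusted p = 0.0174) and by 0.56 in ACAT1 KO cells (standard error 0.139, adjusted p = 0.0039). The WT call was lost without unstimulated replicate 1, at -0.27 (adjusted p = 0.0569), without LPS replicate 2, at -0.33 (adjusted p = 0.0737), and once the 3 libraries with a high other-strand share had a term of their own, at -0.38 (adjusted p = 0.0763).

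**Figure D3:**
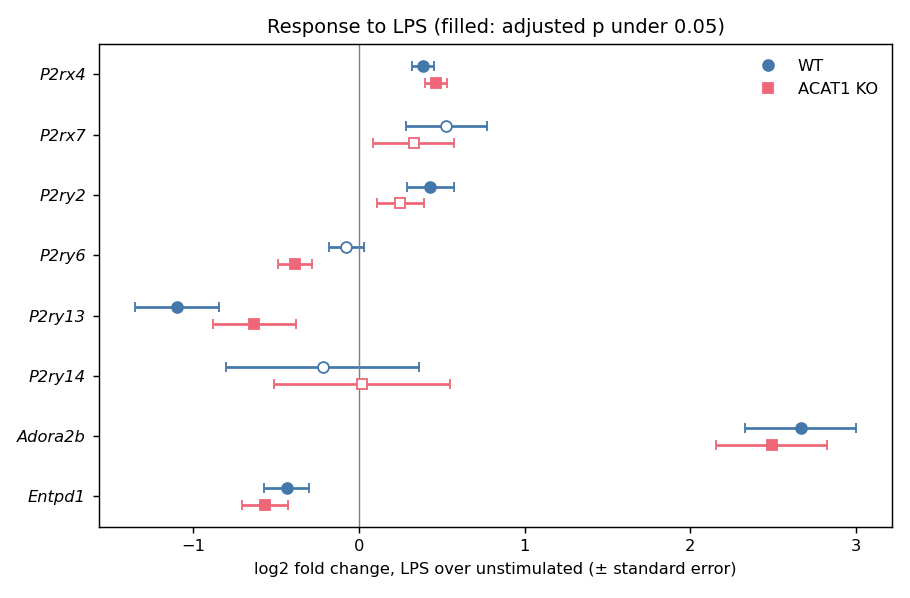
Log2 fold change of LPS over unstimulated cells with its standard error, for WT (circles) and ACAT1 KO cells (squares), filled where the edgeR adjusted p was under 0.05. Adora2b stands above 2 in both genotypes, P2rx4 is above 0, and P2ry13 and Entpd1 are below 0.

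The comparison of genotypes without stimulation gave no call among the 8 genes by edgeR, with 3 at an unadjusted p under 0.05. Of the 16440 genes tested 1.91% were called, 0.742% higher and 1.17% lower, and 19.7% had an unadjusted p under 0.05. The 3 were lower in every ACAT1 KO library than in every WT library, as was so for 13.2% of all genes, while 1 of the 8 was higher throughout, as were 12.3%. By DESeq2 1 of the 8 was called and by limma-voom none, where they called 1721 and 287 of the 16440 genes. Spread between replicates beyond sampling noise, the common biological coefficient of variation of edgeR, was 0.285 without stimulation and 0.108 after LPS. Entpd1 was lower by 0.54 on the log2 scale (standard error 0.155, unadjusted p = 0.0102, edgeR adjusted p = 0.126), and it passed by DESeq2 (adjusted p = 0.0088) and in an edgeR fit of all 12 libraries (adjusted p = 0.0332). Adora2b was lower by 0.52 (standard error 0.198, unadjusted p = 0.0346, edgeR adjusted p = 0.213). P2ry13 was lower by 0.44 (standard error 0.164, unadjusted p = 0.0318, edgeR adjusted p = 0.207). The libraries with a high other-strand share are 2 of WT and 1 of ACAT1 KO cells and those with a low share 1 and 2, so ratios within them have an arm of a single library and no test. The log2 ratio of ACAT1 KO over WT within the high and the low share was -0.54 and -0.51 for Entpd1, -0.60 and -0.62 for Adora2b and -0.47 and -0.60 for P2ry13. It differed in sign between them for P2rx4, at -0.093 and 0.17, and for P2ry2, at -0.33 and 0.085. The sign also differed for P2rx7, at -0.076 and 0.0084, and for P2ry6, at 0.081 and -0.00058. P2ry14 was higher in each ACAT1 KO library, by 0.48 on the log2 scale at these low counts (standard error 0.262, edgeR adjusted p = 0.372). P2rx4, P2rx7, P2ry2 and P2ry6 overlapped between genotypes, with log2 fold changes of -0.16 to 0.07.

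After LPS, Entpd1 was lower and Adora2a higher in ACAT1 KO cells, 2 of 9 genes, where 15.1% of the 16483 genes tested passed, 5.93% higher and 9.12% lower. Entpd1 stood at 0.633 times its WT level (log2 fold change -0.66, standard error 0.103, edgeR adjusted p = 0.0077). It was called in all 15 alternatives, with log2 fold changes of -0.76 to -0.60. Adora2a, the high-affinity Gs-coupled adenosine receptor at chr10:75316877-75334784, was 0.469, 0.395 and 0.317 CPM in WT and 0.675, 0.599 and 0.705 CPM in ACAT1 KO cells, from 39 to 74 counts per library. The groups did not overlap, and the log2 fold change was 0.78 (standard error 0.199, edgeR adjusted p = 0.0350). This call was kept in 8 of 14 alternatives and lost in 5 of the 6 fits without a library, at 0.64 to 0.85 on the log2 scale (adjusted p = 0.0805 to 0.109), while it held without WT replicate 1. With the replicate number as a block it also missed (adjusted p = 0.0604).

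In all, 5 of the 9 had an unadjusted p under 0.05 after LPS, where 31.3% of all genes did: P2rx4, P2ry2, P2ry6, Adora2a and Entpd1. The libraries did not overlap for 2 higher and 2 lower genes, as for 15.8% and 21.9% of all genes. Adora2b was lower by 0.68 on the log2 scale (standard error 0.353, edgeR adjusted p = 0.232), and by 0.12 without WT replicate 1. P2ry6 was lower by 0.27 (standard error 0.112, edgeR adjusted p = 0.140), with the highest ACAT1 KO library above the lowest WT library, and it passed without ACAT1 KO replicate 2, at -0.41 (adjusted p = 0.0470). P2ry13 differed by 0.03 (standard error 0.276, edgeR adjusted p = 0.955). The median log2 fold change of the set was -0.22 after LPS and -0.10 without stimulation, against -0.0041 and 0.0035 over all genes.

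**Figure D4:**
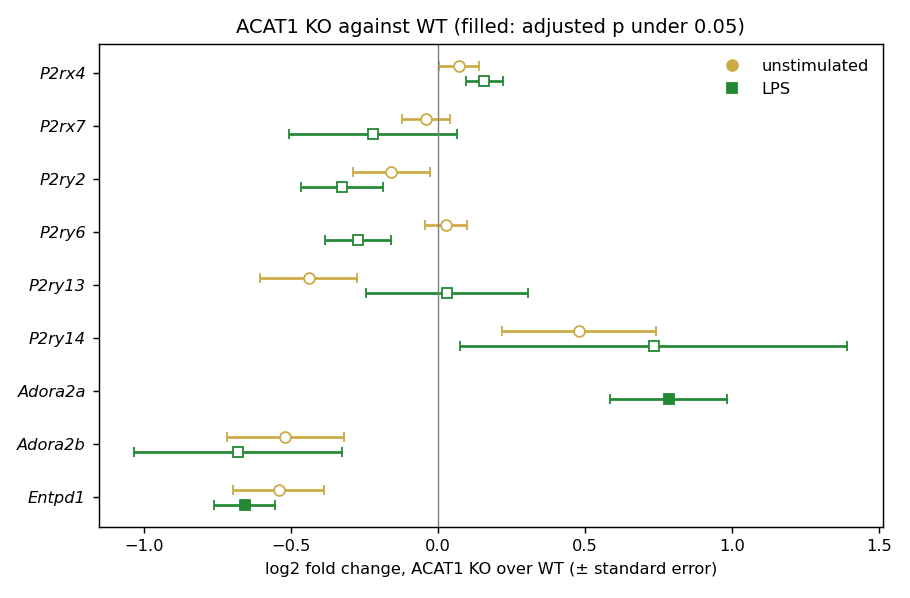
Log2 fold change of ACAT1 KO over WT cells with its standard error, without stimulation (circles) and after LPS (squares), filled where the edgeR adjusted p was under 0.05. Entpd1 lies below 0 in both states and is filled after LPS, and Adora2a, tested after LPS only, is the filled square above 0.

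The other genes of the pathway were examined as 5 lists. Of 11 further P2 and adenosine receptors, 7 were in a table. Of the 4 tested in both states, 3 fell after LPS in both genotypes, where 28.0% of all genes fell in WT and 31.2% in ACAT1 KO cells, and none rose. The 3 were P2ry1, P2ry12 and P2rx3, of which P2rx3 had widely spread unstimulated values, given below. P2ry1, an ADP receptor coupled to Gq, went from 2.43 ± 0.343 to 0.990 ± 0.0297 CPM (SD, n = 3) in WT cells, a log2 fold change of -1.29 (edgeR adjusted p = 1.01e-05). It fell by 1.57 in ACAT1 KO cells and was higher in ACAT1 KO than in WT cells after LPS, by 0.55 (standard error 0.133, edgeR adjusted p = 0.0318). Unstimulated, P2ry1 was 4.24 ± 0.462 CPM in ACAT1 KO against 2.43 ± 0.343 CPM in WT cells, and edgeR called none of the list there. P2rx3, an ATP-gated channel best known from sensory neurons, fell by 2.16 in WT and 2.42 in ACAT1 KO cells (edgeR adjusted p = 0.0428 and 0.0290). Its level went from 1.29 ± 0.897 to 0.286 ± 0.0294 CPM (SD, n = 3) in WT cells. In ACAT1 KO cells it went from 0.974 ± 1.23 to 0.179 ± 0.0083 CPM. The unstimulated SD was thus above the mean in ACAT1 KO cells, and the part of single libraries in these falls was not tested. Limma-voom called 2 of the 4 genes in each genotype after LPS, against 9283 in WT and 9968 in ACAT1 KO cells of the 16535 genes tested.

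Of 19 listed genes of nucleotide and adenosine metabolism, 10 were tested, and 4 rose and 2 fell after LPS in each genotype, a share near the 57.4% and 60.7% called over all genes. Enpp4, an ectonucleotide phosphodiesterase, rose by 2.52 and 2.56 on the log2 scale in WT and ACAT1 KO cells (edgeR adjusted p = 2.43e-08 and 1.74e-08). Pnp, the purine nucleoside phosphorylase, rose by 1.45 and 1.84 (adjusted p = 4.95e-07 and 6.41e-08). Acp2, a lysosomal acid phosphatase, was the 1 gene of the list that edgeR called between genotypes without stimulation, where 1.91% of all genes were called. It was at 75.7 ± 3.49 CPM in WT and 113 ± 4.96 CPM in ACAT1 KO cells (SD, n = 3, log2 fold change 0.58, edgeR adjusted p = 0.0185). DESeq2 called 3 of the 10 higher and 2 lower there, against 814 and 907 of the 16440 genes tested. After LPS Acp2 was also higher in ACAT1 KO cells, by 0.44, as was Entpd6, a secretory-pathway relative of Entpd1, by 0.61. Entpd5 was lower after LPS by 0.30 (edgeR adjusted p = 0.0301). Over all genes 5.93% passed higher and 9.12% lower after LPS. In unstimulated cells Entpd6 was 41.4 ± 1.28 CPM in ACAT1 KO and 30.7 ± 3.48 CPM in WT cells, and Entpd5 19.7 ± 1.93 against 25.1 ± 2.57 CPM.

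Nucleotide release channels and nucleoside transporters were tested for 14 of 15 listed genes, of which 5 rose and 3 fell in WT cells and 4 rose and 4 fell in ACAT1 KO cells after LPS, again near the 57.4% and 60.7% of all genes. Lrrc8d, a subunit of volume-regulated anion channels, rose by 1.56 and 1.71 on the log2 scale (edgeR adjusted p = 2.53e-07 and 1.04e-07). After LPS 2 of 13 were higher and 3 lower in ACAT1 KO cells, where 5.93% and 9.12% of all genes were. Slc29a3, a lysosomal nucleoside transporter, was lower by 0.64 and Lrrc8c by 0.41 (edgeR adjusted p = 0.0097 and 0.0080). Gja1, which encodes connexin 43, was higher, 13.7 ± 3.26 against 3.08 ± 2.78 CPM (SD, n = 3, adjusted p = 0.0373). In unstimulated cells Gja1 was 8.23 ± 0.994 CPM in ACAT1 KO and 2.77 ± 2.46 CPM in WT cells. There Slc29a3 was 16.9 ± 2.43 against 19.2 ± 2.20 CPM and Lrrc8c 23.5 ± 2.67 against 22.7 ± 2.35 CPM. EdgeR called none of the list without stimulation.

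Among G proteins and effectors, 27 of 30 were tested. After LPS 8 rose and 10 fell in WT cells, and 9 rose and 12 fell in ACAT1 KO cells, where 57.4% and 60.7% of all genes were called. Gna13 rose by 2.25 and 2.03 and Pde4b, a cAMP phosphodiesterase, by 2.08 and 2.47 on the log2 scale, while its relative Pde4a fell by 1.04 and fell by 1.48 (edgeR adjusted p of 3.70e-06 or less). Between genotypes after LPS 6 passed with lower and 1 with higher levels in ACAT1 KO cells, against 9.12% and 5.93% of all genes. Prkar2b, a regulatory subunit of protein kinase A, was 2.39 ± 0.342 CPM in ACAT1 KO and 4.82 ± 0.515 CPM in WT cells (SD, n = 3, log2 fold change -0.99, edgeR adjusted p = 0.0054). In unstimulated cells Prkar2b was 4.96 ± 1.19 against 9.74 ± 1.65 CPM, without an edgeR call. Pde4a, Itpr3, Adcy3 and Arrb1 were lower after LPS by 0.50, 0.37, 0.71 and 0.33. Their unstimulated means were 40.1, 62.8, 0.253 and 102 CPM in ACAT1 KO and 42.4, 84.2, 0.407 and 103 CPM in WT cells. Without stimulation Pde4b was lower by 0.63 and Plcb2, a phospholipase C, higher by 0.56 (edgeR adjusted p = 0.0333 and 0.0390), where 1.91% of all genes were called. DESeq2 called 1 gene higher and 3 lower there, against 814 and 907 of the 16440 genes tested.

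All 10 inflammasome genes listed downstream of P2X7 were tested, and 7 rose and 2 fell after LPS in both genotypes, where 29.3% and 28.0% of all genes did so in WT and 29.5% and 31.2% in ACAT1 KO cells. Nlrp3, the sensor, rose by 2.31 and 2.48 on the log2 scale, and Pycard, its adaptor, fell by 0.81 and 0.86 (edgeR adjusted p of 4.73e-07 or less). Between genotypes after LPS 2 were higher and 2 lower in ACAT1 KO cells, where 15.1% of all genes were called. Il1b was 593 ± 167 CPM in ACAT1 KO and 219 ± 67.8 CPM in WT cells, and Il1a 473 ± 103 against 200 ± 65.9 CPM (SD, n = 3, log2 fold changes 1.46 and 1.26, edgeR adjusted p = 0.0130 and 0.0177). Il18 was lower by 0.63 and Gsdmd, the pore-forming executioner of pyroptosis, by 0.23. In unstimulated cells Il18 was 8.46 ± 1.22 CPM in ACAT1 KO and 13.2 ± 1.12 CPM in WT cells, and edgeR called none of the list there. Unstimulated means of Il1b, Il1a and Gsdmd were 3.63, 0.195 and 72.3 CPM in ACAT1 KO and 3.15, 0.148 and 80.9 CPM in WT cells. The interaction test called none of the listed genes in any of the 5 lists, by edgeR, DESeq2 or limma-voom.

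**Figure D5:**
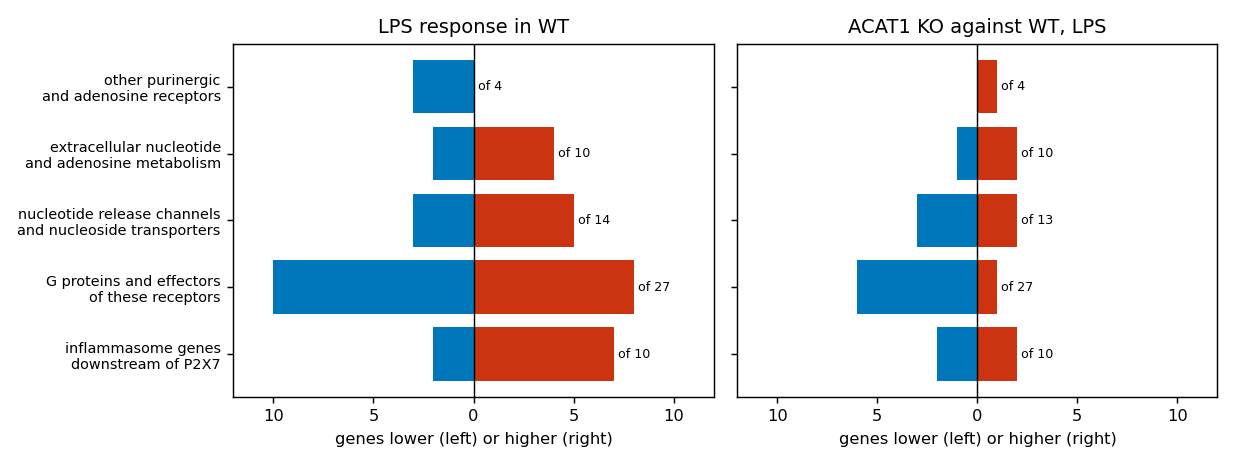
Number of genes higher (right, red) or lower (left, blue) at an edgeR adjusted p under 0.05 in each of 5 lists, with the number tested, for the LPS response in WT cells (left panel) and for ACAT1 KO against WT cells after LPS (right panel). Inflammasome genes are mostly on the right in the left panel, and G proteins and effectors mostly on the left in the right panel.

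Likeness of pattern was described by Pearson's r of log2 CPM over the 12 libraries against 11961 genes, which share the split by LPS. Adora2b was most like Rps6kb1, which encodes a ribosomal S6 kinase (r = 0.990). P2ry2 was most like Galnt6 (r = 0.965) and Entpd1 like Mmp19, a matrix metalloproteinase gene (r = 0.960). P2ry13 was nearest to E130307A14Rik (r = 0.944), P2ry6 to Kat7 (r = 0.901), P2rx7 to Vav1 (r = 0.877) and P2ry14 to Gcfc2 (r = 0.822). No gene of the set was the nearest to another, neighbours on the chromosome included. P2ry14, with a mean below 1 CPM, and Adora2a, listed after LPS only, were not among the genes compared and could not be the nearest.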

How the data were processed

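RNA-seq of 12 libraries was analysed, grouped by the genotype, treatment and number in the labels. The authors used Trimmomatic 0.33 for trimming, HISAT2 for alignment to GRCm38 and StringTie for quantification. The deposited tables, 1 per state, hold whole-number counts per gene, and the step that made them and its strand setting are not given in the sources used here. The authors' 12 columns of log2 values per library, and their fold changes and p-values, were not used. The tables hold 17544 and 17874 genes, none with under 4 counts in more than 1 of its 6 libraries, once 59 and 57 repeated entries were removed, a second P2ry14 entry with the same counts among them.

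Counts were filtered by filterByExpr, normalized by TMM and tested two-sided with the quasi-likelihood F test of edgeR 4.0.16 in R 4.3.3, with Benjamini-Hochberg adjustment over all genes tested. Genotypes were compared within each state over 6 libraries, and LPS responses and the interaction in a fit of 12 libraries over the 16699 genes of both tables. The tests were tried on simulated counts. Levels are CPM on a single TMM scale, and lengths and coordinates are those of the GENCODE annotation of GRCm38. DESeq2 1.42.0, limma-voom (limma 3.58.1), other scalings, filters and dispersions, blocks and leaving out each library were alternatives. Ratios within the libraries of a high and of a low other-strand share were added after seeing the data.

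Named are the 9 genes, at most 5 genes per list and comparison by smallest p, the genes beside or overlapping a member, and the 2 most alike by r over genes with a mean of at least 1 CPM, of which 1 is printed. Members, lists and tests were chosen with earlier results of these data known. Replicates are separate lines per the study, and the 12 pairs within groups differed beyond sampling noise (chi-square over its degrees of freedom 31.3 to 267). The likeness of pattern for P2rx4 is not reported here.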

Additional observations from a re-analysis of the deposited data

How the results depend on the processing

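Adora2b and P2rx4 after LPS, P2ry13 after LPS in WT cells, P2ry6 and Entpd1 after LPS in ACAT1 KO cells and Entpd1 between genotypes after LPS kept direction and call in every alternative run. Over all genes, the unstimulated count of 314 became 1721 with DESeq2, 475 with at least 10 counts in every library, 522 with robust dispersion, 664 with a term for the other-strand libraries and 1353 in a single fit of 12 libraries, and 7 (without WT replicate 2) to 522 (without WT replicate 3) when a library was left out, with 17 without WT replicate 1 and 24, 34 and 10 without ACAT1 KO replicates 1, 2 and 3. DESeq2 and the single fit each called 1 of the 8 members there, Entpd1, and leaving out a library called 0. After LPS the count of 2481 was 3098 with DESeq2, and it ran from 867 (without ACAT1 KO replicate 2) to 2245 when a library was left out, with 1183 without WT replicate 2 and 1020 and 1034 without ACAT1 KO replicates 1 and 3, and the members called from 1 to 2. The single fit called 1 member, since it lacks Adora2a. The interaction count of 31 became 333 with DESeq2, 11 with limma-voom and 69 with the other-strand term, and 2 to 41 without a library, with 0 members throughout. Without a library LPS calls ran from 8636 to 9676 in WT and from 8978 to 10224 in ACAT1 KO cells, with 4 to 6 members in both, and they reached 10309 and 10481 with upper-quartile scaling and 10248 and 10718 with the line block.

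Upper-quartile scaling moved the median LPS response of all genes from -0.018 to -0.23 in WT and from -0.026 to -0.17 in ACAT1 KO cells, and the share of calls that were higher from 51.1% to 35.2% and from 48.5% to 37.4%. With it P2ry2 was not called in WT cells, at 0.22, and P2ry6 was, at -0.28. G proteins and effectors then gave 5 higher and 14 lower in both genotypes, and the metabolism list 3 and 4 in WT and 4 and 5 in ACAT1 KO cells. It also moved the share of higher interaction calls from 25.8% to 43.5%. In a single fit 29.9% of genotype calls after LPS were higher, against 39.4%. P2rx7 passed in 2 of the 12 fits without a library in WT and in 1 in ACAT1 KO cells. With relative log expression scaling P2ry13 missed in ACAT1 KO cells after LPS (edgeR adjusted p = 0.0510).

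Signs turned for values that no fit called unless stated. The LPS response of P2ry14 in ACAT1 KO cells was -0.43 with limma-voom, -0.12 with upper-quartile scaling and -0.015 with the other-strand term, and -1.30 to 0.39 without a library, called at the lowest only. Its interaction was -0.19 with limma-voom and -1.08 to 0.61 without a library, and its genotype difference after LPS was -0.59 to 1.12. Leaving out a library moved the interaction of P2rx7 from -0.38 to 0.25, of Adora2b from -0.41 to 0.39 and of Entpd1 from -0.28 to 0.0062. It moved the genotype difference after LPS of P2rx7 from -0.40 to 0.22 and of P2ry13 from -0.24 to 0.25, and the unstimulated one of P2rx7 from -0.10 to 0.039 and of P2ry6 from -0.012 to 0.068. The cause was not tested in any of these.

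Same-numbered libraries of a genotype deviated together across states, with r of 0.0913 to 0.307 across 16535 genes, over 0.1 in 5 of 6 pairs, and all 12 libraries correlated best with their own number, a hint from the data. Between genotypes r ran from -0.34 to 0.65 for the same number, so the numbers share only a number there. Across genotypes without stimulation, whatever the number, r was 0.48 to 0.65 between libraries alike in other-strand share. It was -0.79 to -0.34 between those unlike in it, a split of the unstimulated libraries across all genes compared. With the replicate number as a block, 151 genes were called without stimulation and 1 member, Entpd1, after LPS. With it as a line block across states, 288 genes passed the interaction test, P2ry2 was called after LPS in ACAT1 KO cells, at 0.25 (edgeR adjusted p = 0.0168), and P2ry14 turned to -0.27 there and to -0.039 in the interaction. No term for the other-strand libraries was fitted after LPS, where all libraries have a low share.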

Other observations

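WT LPS replicate 1 had the highest value of its group for P2rx7, P2ry2 and Adora2b, at 123, 17.2 and 11.5 CPM, and the lowest for P2ry13, at 1.56 CPM. In the same library P2ry6 and Adora2a were also highest, at 134 and 0.469 CPM, and P2rx4 and P2ry14 were lowest, at 60.9 and 0.106 CPM. Entpd1 was highest there too, at 17.4 CPM, close to the 17.2 CPM of replicate 3. Specc1, the gene before Adora2b on chromosome 11, fell by 0.50 on the log2 scale after LPS in ACAT1 KO cells (edgeR adjusted p = 0.0002) and was at -0.0039 in WT cells (adjusted p = 0.973), a difference that did not pass the interaction test (adjusted p = 0.115). Specc1l, the gene before Adora2a, rose by 1.16 in WT and 1.01 in ACAT1 KO cells (adjusted p = 2.00e-08 and 4.47e-08). Camkk2, the gene after P2rx4, rose by 1.17 and 1.21 (edgeR adjusted p = 3.01e-06 and 1.92e-06), and Ift81, the gene before P2rx7, fell by 1.05 and fell by 1.30 (adjusted p = 3.96e-06 and 5.74e-07).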
